A study of Mus musculus with 58 samples.

Results

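The response of the mouse prefrontal cortex to fluoxetine was compared between 2 Tanc2 genotypes, as the fluoxetine effect in heterozygous mice minus the fluoxetine effect in wild-type mice. Of 58 libraries in the series, 39 entered this comparison, each from a prefrontal cortex dissected from a C57BL/6J mouse on postnatal day 25. They were 10 libraries labelled heterozygous (HT) and treated with fluoxetine, 10 labelled HT and given vehicle, 10 labelled wild type (WT) and treated with fluoxetine, and 9 labelled WT and given vehicle. Each of these arms held 5 females and 5 males, except WT vehicle with 5 females and 4 males. Drug or vehicle reached the pups from day 3 to day 24 through the milk of the dam, so the dose taken up by a pup is not known. All 18088 genes of the table were open to the comparison, and 17925 of them reached a normalized read count of 10 in 4 or more libraries and were tested. The interaction weighed females and males equally, and a positive value means a higher fluoxetine effect in HT-labelled mice.

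Tanc2 encodes a scaffold protein of the postsynaptic density, where scaffolds hold glutamate receptors and their signalling partners in place. Fluoxetine blocks the serotonin transporter, which clears serotonin from the space around serotonergic terminals. The cell bodies of those terminals lie in the raphe nuclei of the brainstem, while the cortex carries the receptors on neurons and glia. Immediate early genes such as Arc are transcribed within minutes to hours of neuronal activity and are a common readout of it in the cortex.

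The deposited values are reads divided by a size factor per library, called normalized reads below, and between 23270000 and 37800000 reads lay behind the 39 libraries (median 28240000). Tanc2 (GRCm38 chromosome 11, 105589986 to 105929304, plus strand) had 7414, 8160 and 8831 normalized reads (lowest, median, highest) in HT-labelled fluoxetine mice and 7683, 7984 and 8636 in HT-labelled vehicle mice. WT-labelled mice had 6566, 7649 and 8155 under fluoxetine and 6939, 7680 and 8005 under vehicle. Tanc2 was thus not lower in HT-labelled libraries. Its HT minus WT difference (log2 difference ± SE) was 0.099 ± 0.042 under fluoxetine and 0.101 ± 0.044 under vehicle. A value over the whole gene does not check the genotype, as the altered region is not given in the labels. The groups are therefore named by their labels. The interaction of Tanc2 itself was -0.003 ± 0.061 (log2 difference ± SE). Sex labels matched Xist and Ddx3y in 39 of 39 libraries. Litters are not labelled although a dam's treatment reaches a whole litter, so p-values treat mice as independent and measure only the spread between these mice.

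Some libraries stood apart in ways that bear on the interaction. Reads of the processed pseudogene Gm10221 were present in 8 of the 39 libraries, namely 5 of 5 HT-labelled fluoxetine females and 3 of 5 WT-labelled fluoxetine females, and in no male and no vehicle library. The mitochondrial transcript mt-Atp6 ran from 44646 to 65695 normalized reads in those 8 libraries and from 11019 to 34066 in the other 31. Summed markers of the olfactory bulb and of migrating neuroblasts, a tissue next to the frontal cortex, were highest in WT-labelled fluoxetine female 3 (58258 normalized reads over 16 genes). They also reached 43393 in female 4 and 42394 in male 5 of that arm. The highest sums of the other arms were 41891 in HT-labelled fluoxetine male 3, 42166 in HT-labelled vehicle female 3 and 34509 in WT-labelled vehicle male 3. Further high sums were 34634, 32947, 32517 and 32188 in HT-labelled vehicle male 5, female 5, female 4 and male 2, and 31929 in WT-labelled vehicle female 1. Medians were 21313, 28267, 19128 and 18969 in HT-labelled fluoxetine, HT-labelled vehicle, WT-labelled fluoxetine and WT-labelled vehicle mice. All 741 pairs of libraries differed by more than the noise of sampling, with a chi-square of at least 3.15 for each degree of freedom.

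Many immediate early genes fell with fluoxetine in both genotypes, and for no gene did the difference between genotypes pass. By limma with Benjamini-Hochberg adjustment 0 of 17925 genes (0%) had an adjusted p under 0.05, and the smallest adjusted p was 0.232. At an unadjusted p under 0.05 there were 1128 genes (6.29%), 485 with a positive interaction (2.71%) and 643 with a negative interaction (3.59%). edgeR on the reads recovered from the deposited values called 0 genes (0%), and DESeq2 on the same reads called 2 genes (0.0112%), Gm42890 and Gm9794. The 95% confidence interval of the interaction had a median half-width of 0.20 on the log2 scale. It lay wholly between -0.5 and 0.5 for 70.4% of all genes and for 93.6% of the 12452 genes with a mean of at least 100 normalized reads. For 99.1% of those 12452 genes it lay wholly between -1 and 1. Differences of a small fraction of a log2 unit could not be resolved with this number of mice, and a p that missed the threshold does not show that the genotypes responded alike.

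The fluoxetine effect passed for 635 genes (3.54%) in HT-labelled mice, 261 higher (1.46%) and 374 lower (2.09%), and for 248 genes (1.38%) in WT-labelled mice, 84 higher (0.469%) and 164 lower (0.915%). These effects share no library, and their counts depended on the processing. The HT-labelled count was 377 without HT-labelled vehicle male 5, 1947 with library weights and 184 with a Gm10221 term and additive sex. The WT-labelled count was 159 without WT-labelled vehicle male 1, 498 with library weights and 129 with that term and additive sex. Both effects passed for 121 genes, which is 19.1% of the genes of the HT-labelled effect and 48.8% of those of the WT-labelled effect. Of the 121, 24 rose in both and 97 fell in both, and 0 genes passed in opposite directions. Of the 374 genes that fell in HT-labelled mice, 91.2% had a value below 0 in WT-labelled mice, and of the 261 that rose, 89.3% had a value above 0. Of the 164 genes that fell in WT-labelled mice, 98.2% had a value below 0 in HT-labelled mice, and of the 84 that rose, 97.6% had a value above 0. Genes lowered in HT-labelled mice had a median effect of -0.23 there and of -0.12 in WT-labelled mice, and genes lowered in WT-labelled mice had a median of -0.22 in HT-labelled and -0.31 in WT-labelled mice. The choice of genes on the effect in 1 genotype favours a smaller value in the other, so neither pair of medians shows a difference between genotypes. An effect that passed in HT-labelled and not in WT-labelled mice was found for 514 genes, of which 173 had an unadjusted interaction p under 0.05, and the reverse was found for 127 genes, of which 39 did, beside 6.29% of all genes. Genes chosen because 1 effect passed and the other did not are favoured for a small interaction p, so these counts are a description.

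**Figure D1:**
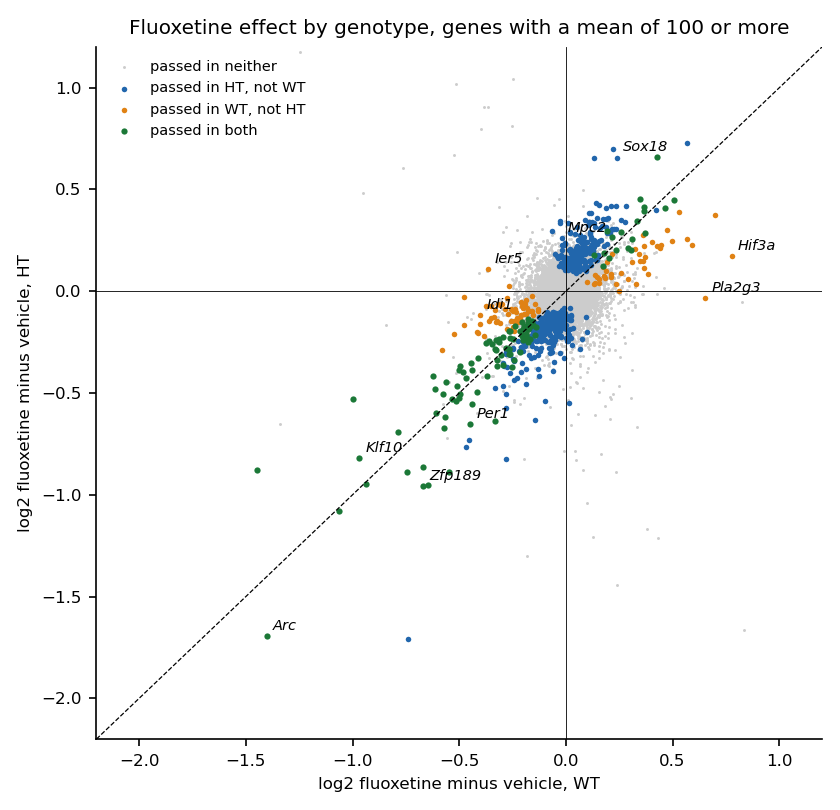
Log2 fluoxetine effect in HT-labelled mice (vertical axis) against that in WT-labelled mice (horizontal axis), with a point for each of the 12452 genes with a mean of at least 100 normalized reads. 2 of these genes lie outside the axes. Colours mark genes whose effect passed in HT-labelled mice, in WT-labelled mice, in both or in neither, and the dashed line marks equal effects. Genes that passed in both lie along the line, with Arc at -1.70 in HT-labelled and -1.40 in WT-labelled mice, while Ier5, Idi1, Hif3a and Pla2g3 lie off it without passing the interaction.

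The genes with the smallest p of the fluoxetine effect in either genotype had effects of the same sign in both. Stk40, which encodes a serine/threonine kinase-like protein, had 764.5, 818.7 and 881.2 normalized reads (lowest, median, highest) in HT-labelled fluoxetine mice and 1051, 1151 and 1321 in HT-labelled vehicle mice. The WT-labelled arms had 723.2, 809.8 and 889.5 under fluoxetine and 1018, 1168 and 1223 under vehicle. Treated and vehicle mice did not overlap in either genotype. It fell by 0.50 ± 0.05 in HT-labelled mice and by 0.50 ± 0.05 in WT-labelled mice (limma adjusted p = 1.41e-09 and 1.61e-08), and the interaction was -0.005 with a 95% interval of -0.15 to 0.14. Nab2, a corepressor of EGR transcription factors, fell by 0.54 ± 0.06 in HT-labelled mice and fell by 0.51 ± 0.06 in WT-labelled mice, also without overlap in either genotype (interaction -0.03, interval -0.20 to 0.15). Klf10, a Krüppel-like repressor, fell by 0.82 ± 0.11 in HT-labelled mice and fell by 0.97 ± 0.12 in WT-labelled mice (interaction 0.15 ± 0.16). Flrt3, a cell adhesion protein of synapses, rose by 0.41 ± 0.06 in HT-labelled and 0.37 ± 0.06 in WT-labelled mice (interaction 0.05 ± 0.09).

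Of the 121 genes that passed in both genotypes, 5 had an unadjusted interaction p under 0.05, named here after their values were seen. They were Per1, a clock and activity-regulated repressor, Zfp189, a zinc finger protein, Ddit4, a stress-induced inhibitor of mTOR complex 1, Nr4a3, an orphan nuclear receptor of the immediate early class, and the gene model AC132288.2. Per1 had 1661, 1816 and 2221 normalized reads in HT-labelled fluoxetine mice and 2714, 2896 and 3341 in HT-labelled vehicle mice, without overlap. Values in WT-labelled mice were 1867, 2018 and 2494 under fluoxetine and 2450, 2826 and 3279 under vehicle, where the ranges overlapped. It fell by 0.65 ± 0.06 in HT-labelled mice and fell by 0.45 ± 0.06 in WT-labelled mice (interaction -0.20 ± 0.09, limma adjusted p = 0.792). Zfp189 had 156.4, 183.9 and 219.8 normalized reads in HT-labelled fluoxetine mice and 325.1, 343.9 and 405.1 in HT-labelled vehicle mice, again without overlap. In WT-labelled mice it had 162, 225.8 and 325 under fluoxetine and 302.6, 361.1 and 436.5 under vehicle. It fell by 0.96 ± 0.08 in HT-labelled mice and fell by 0.67 ± 0.09 in WT-labelled mice (interaction -0.29 ± 0.12, adjusted p = 0.792). Ddit4 fell by 0.64 ± 0.09 in HT-labelled mice and fell by 0.33 ± 0.09 in WT-labelled mice. Nr4a3 fell by 0.53 in HT-labelled mice and fell by 0.999 in WT-labelled mice (interaction 0.47 ± 0.21).

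**Figure D2:**
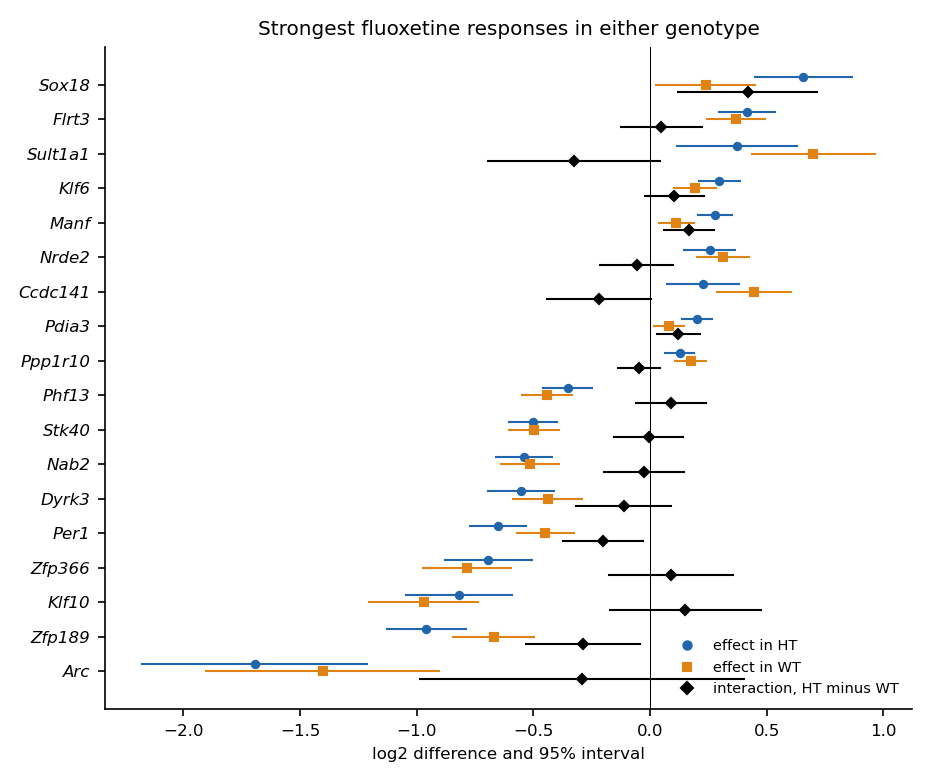
Log2 differences with 95% intervals (horizontal axis) for Arc and the genes with the smallest p of the fluoxetine effect in either genotype. Blue circles are the effect in HT-labelled mice, orange squares that in WT-labelled mice and black diamonds the interaction. Both effects lie on the same side of 0 for each gene shown, and the interaction intervals of Sox18, Manf, Pdia3, Per1 and Zfp189 leave out 0 before adjustment over all genes.

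The smallest adjusted interaction p belonged to Gm42890, an unnamed processed transcript on chromosome 3 (105959503 to 105984600, plus strand). It had 47.36, 65.73 and 88.87 normalized reads in HT-labelled fluoxetine mice and 73.56, 112.6 and 151.9 in HT-labelled vehicle mice. WT-labelled mice had 64.43, 89.6 and 171.6 under fluoxetine and 50.84, 76.53 and 103.2 under vehicle. All 10 HT-labelled fluoxetine mice lay below the vehicle mean of their sex, and 8 of 10 WT-labelled fluoxetine mice lay above it. The interaction was -1.14 ± 0.24 (limma adjusted p = 0.232), with -1.41 in females and -0.87 in males, and between -1.23 and -1.05 with any of the 39 libraries left out. DESeq2 passed it, and limma with weights for each library passed it too. Gm9794, the other DESeq2 call, is a processed pseudogene listed at 0 in most libraries. Its reads were above 0 in 2 HT-labelled fluoxetine mice (81.72 and 119.6 normalized reads), 3 HT-labelled vehicle mice (50.26, 55.97 and 55.06), 6 WT-labelled fluoxetine mice (40.27 to 321.7) and 1 WT-labelled vehicle mouse (51.4). Reads of a pseudogene can be divided with those of its parent, so this value is uncertain.

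Among annotated genes with a mean of at least 100 normalized reads, the 12 with the smallest p and a positive interaction had varied functions. None passed the interaction. Mpc2, a subunit of the carrier that brings pyruvate into mitochondria (chromosome 1, 165460637 to 165481214, plus strand), had 1287, 1525 and 1696 normalized reads in HT-labelled fluoxetine mice and 1122, 1226 and 1313 in HT-labelled vehicle mice. The WT-labelled arms had 1027, 1244 and 1597 under fluoxetine and 1170, 1258 and 1435 under vehicle. All 10 treated HT-labelled mice lay above the vehicle mean of their sex, against 4 of 10 treated WT-labelled mice. Mpc2 rose by 0.26 ± 0.05 in HT-labelled mice (limma adjusted p = 0.000508), while in WT-labelled mice its effect was -0.02 ± 0.05 (interaction 0.28 ± 0.07, adjusted p = 0.731). Cox5a, a subunit of cytochrome c oxidase (chromosome 9, 57521274 to 57532426, plus strand), had 2205, 2424 and 2723 normalized reads in HT-labelled fluoxetine mice and 1828, 2077 and 2264 in HT-labelled vehicle mice. Values in WT-labelled mice were 1830, 2143 and 2438 under fluoxetine and 1988, 2157 and 2490 under vehicle. It rose by 0.23 ± 0.04 in HT-labelled mice, and in WT-labelled mice its effect was -0.002 ± 0.042 (interaction 0.23 ± 0.06, adjusted p = 0.731).

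Ier5, an immediate early regulator of heat shock factor activity (chromosome 1, 155096361 to 155099636, minus strand), had 1176, 1601 and 1817 normalized reads in HT-labelled fluoxetine mice and 1244, 1426 and 1620 in HT-labelled vehicle mice. In WT-labelled mice it had 1006, 1290 and 1583 under fluoxetine and 1323, 1629 and 1946 under vehicle. Of the treated HT-labelled mice 7 of 10 lay above the vehicle mean of their sex, while all 10 treated WT-labelled mice lay below it. The effect was 0.11 ± 0.08 in HT-labelled mice, and Ier5 fell by 0.37 ± 0.08 in WT-labelled mice (limma adjusted p = 0.0106; interaction 0.47 ± 0.12, adjusted p = 0.731). The interaction was 0.72 in females and 0.23 in males. HT-labelled fluoxetine females, all of which had Gm10221 reads, had 1817, 1684, 1589, 1528 and 1699 normalized reads, and HT-labelled vehicle females had 1521, 1620, 1276, 1244 and 1336. With a term for the presence of Gm10221 reads the interaction was 0.50 (limma adjusted p = 0.264), and with that term and additive sex it was 0.47. Without additive sex the term is estimated from WT-labelled fluoxetine females alone, so it is no check on HT-labelled females.

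Other positive interactions among the 12 came from Tmbim4, a membrane protein that restrains cell death, Tmem9b, a lysosomal membrane protein, and Glrx3, a glutaredoxin that handles iron-sulfur clusters. These 3 genes rose in HT-labelled mice by 0.182 ± 0.045, 0.171 ± 0.037 and 0.174 ± 0.045, and their effects in WT-labelled mice were -0.05, -0.02 and -0.04. Trim27, a ubiquitin ligase, Chmp5, a subunit of the membrane-cutting ESCRT-III complex, Cys1, a ciliary protein, and Prkcq, a protein kinase C, passed in neither genotype. Their interactions were 0.20, 0.17, 0.49 and 0.30. Idi1 and Manf complete the list and are described with their pathways.

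Among the 11 reported genes with the smallest p and a negative interaction, 2 encode subunits of Polycomb repressive complex 1, which modifies histone H2A at silenced genes. Cbx7, the subunit that reads trimethylated histone H3 (chromosome 15, 79915807 to 79971119, minus strand), had 825.1, 891.9 and 1004 normalized reads in HT-labelled fluoxetine mice and 895.9, 998 and 1061 in HT-labelled vehicle mice. WT-labelled mice had 877.9, 950.5 and 1068 under fluoxetine and 839.8, 897.9 and 943.8 under vehicle. Treated mice lay below the vehicle mean of their sex in 8 of 10 HT-labelled mice and above it in 8 of 10 WT-labelled mice. Cbx7 fell by 0.13 ± 0.04 in HT-labelled mice (limma adjusted p = 0.0316), and its effect in WT-labelled mice was 0.09 ± 0.04 (interaction -0.22 ± 0.05, adjusted p = 0.652). Pcgf2, another subunit, had an interaction of -0.36 ± 0.11, from -0.22 in HT-labelled and 0.14 in WT-labelled mice, neither of which passed.

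The remaining negative interactions belonged to genes of varied function. Celf3, a neuronal regulator of splicing, fell by 0.22 ± 0.04 in HT-labelled mice, with 0.01 ± 0.05 in WT-labelled mice (interaction -0.23 ± 0.06). Rabl2, a small GTPase of cilia, fell by 0.20 ± 0.05 in HT-labelled mice, with 0.10 ± 0.06 in WT-labelled mice (interaction -0.30 ± 0.08). Pla2g3, a secreted phospholipase, had 106.7, 151 and 196.5 normalized reads in HT-labelled fluoxetine mice and 105.8, 154.1 and 193.2 in HT-labelled vehicle mice. The WT-labelled arms had 87.05, 153.8 and 189.4 under fluoxetine and 52.02, 98.31 and 128.4 under vehicle, so WT-labelled vehicle mice were the low arm. The effect was -0.035 ± 0.143 in HT-labelled mice, and Pla2g3 rose by 0.65 ± 0.15 in WT-labelled mice (interaction -0.69 ± 0.21). Saal1 had an effect of 0.003 ± 0.050 in HT-labelled mice and rose by 0.25 ± 0.05 in WT-labelled mice (interaction -0.25 ± 0.07). Zscan18, Pparg, Lrrc61, Dffb and Lrrc56 passed in neither genotype and had interactions between -0.49 (Pparg, a lipid-sensing nuclear receptor) and -0.19 (Lrrc61). Adjusted interaction p was 0.652 for Cbx7, 0.731 for Zscan18 and 0.792 for the others by limma.

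The 23 genes reported, 12 with a positive and 11 with a negative interaction, all had differences between HT-labelled and WT-labelled mice of opposite sign under fluoxetine and under vehicle, and in 20 of them the fluoxetine effects in the 2 genotypes had opposite signs. The choice by interaction p favours both patterns, so these counts are a description. The effect in HT-labelled mice passed for 9 of the 23, the effect in WT-labelled mice for 4, and both for 0. Over all genes the shares were 3.54% in HT-labelled and 1.38% in WT-labelled mice. The choice by interaction p also favours genes where 1 effect passed without the other, so these counts too are a description. Cys1 had the lowest HT minus WT difference under vehicle among the positive genes (0.20 under fluoxetine and -0.295 under vehicle), and Pla2g3 the highest among the negative genes (-0.02 under fluoxetine and 0.67 under vehicle).

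**Figure D3:**
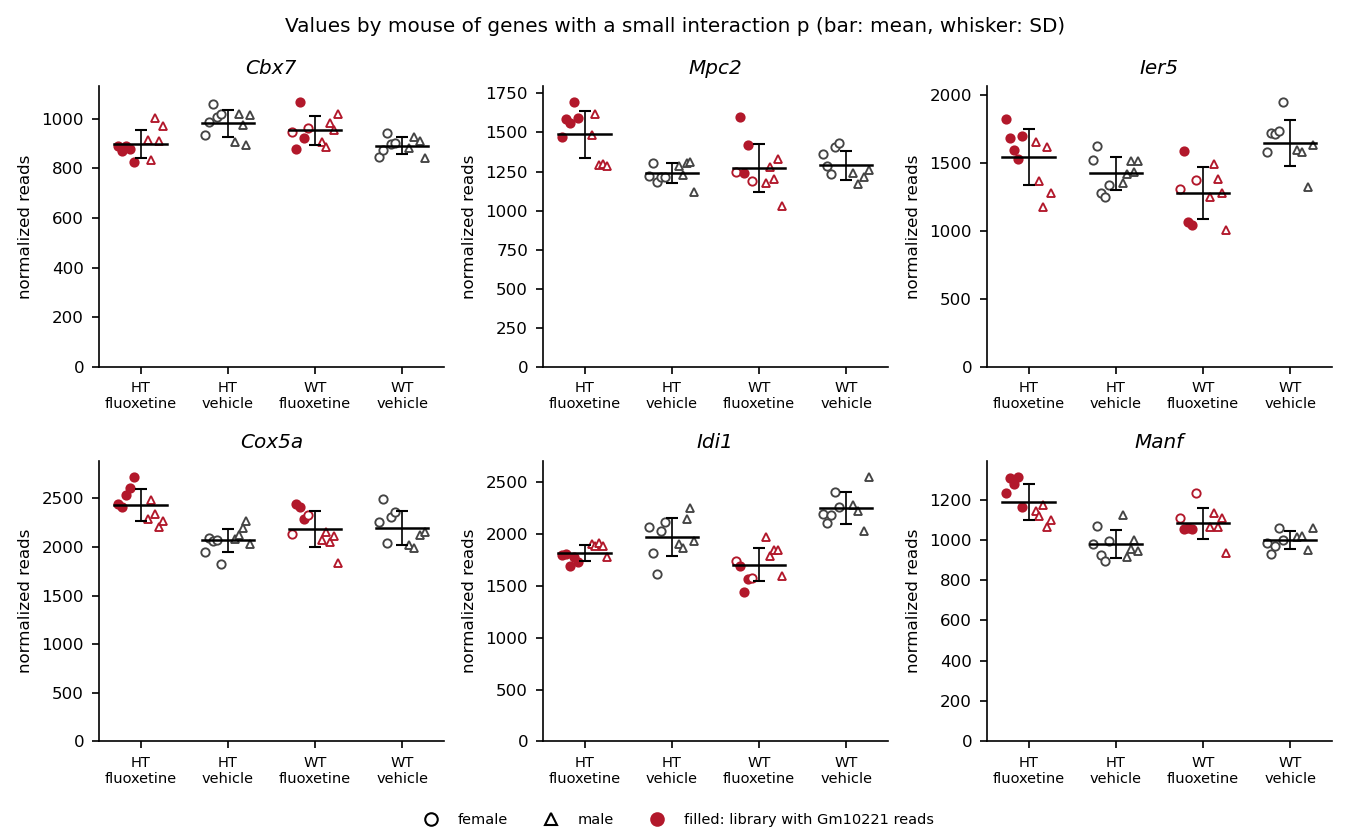
Normalized reads per mouse (vertical axis, from 0) of 6 of the 23 genes in the 4 arms, as labelled, with circles for females, triangles for males and filled symbols for libraries with Gm10221 reads. Bars and whiskers are the mean and SD of an arm. Mpc2, Cox5a and Manf are high in HT-labelled fluoxetine mice (means of 1489, 2429 and 1189), Ier5 and Idi1 are high in WT-labelled vehicle mice (1645 and 2251), and the fluoxetine and vehicle arms of a genotype overlap in every panel except for Idi1 in WT-labelled mice.

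Many of the immediate early genes fell with fluoxetine in both genotypes, and their interactions lay on both sides of 0. Of 50 such genes tested, 25 fell and 1 (Jund) rose in HT-labelled mice, and 18 fell and 0 rose in WT-labelled mice, with 16 that passed in both. The shares over all genes were 1.46% higher and 2.09% lower in HT-labelled mice, and 0.469% higher and 0.915% lower in WT-labelled mice. The median effect of the immediate early genes was -0.27 in HT-labelled and -0.29 in WT-labelled mice, beside 0.003 and 0.00 over all genes. The interaction was above 0 for 23 and below 0 for 27, with a median of -0.02, and none passed. Arc, which trims glutamate receptors from synapses after activity, had 635.9, 1084 and 2772 normalized reads in HT-labelled fluoxetine mice and 2011, 3715 and 6148 in HT-labelled vehicle mice. Values in WT-labelled mice were 585.7, 1124 and 1927 under fluoxetine and 1354, 3441 and 4521 under vehicle. It fell by 1.70 ± 0.24 in HT-labelled mice and fell by 1.40 ± 0.25 in WT-labelled mice, and the interaction was -0.29 with a 95% interval of -0.99 to 0.40. Fos, a subunit of the AP-1 transcription factor, fell by 0.95 ± 0.21 in HT-labelled mice and fell by 0.94 ± 0.22 in WT-labelled mice (interaction -0.01 ± 0.30). Npas4, an activity-induced regulator of inhibitory synapses, had an interaction of -0.56 ± 0.28 without passing in either genotype. Homer1, a postsynaptic scaffold whose short form is induced by activity, had an interaction of 0.33 ± 0.12 (adjusted p = 0.792), and the value sums all its forms.

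Genes of cholesterol synthesis fell with fluoxetine, 2 of 29 in HT-labelled mice (Lss and Insig1) and 14 of 29 in WT-labelled mice, with 1 (Insig1) in both. None passed the interaction. Over all genes 2.09% fell in HT-labelled mice and 0.915% fell in WT-labelled mice. The median effect of the sterol genes was -0.08 in HT-labelled and -0.19 in WT-labelled mice. The interaction was above 0 for 27 of 29 genes with a median of 0.11, beside 9146 of 17925 genes and a median of 0.003 over all genes. An unadjusted p under 0.05 was reached by 8 of 29 (27.6%), all positive, against the background of 2.71% given above. Idi1, the isomerase that makes the building block dimethylallyl diphosphate (chromosome 13, 8885501 to 8892451, plus strand), had 1690, 1804 and 1915 normalized reads in HT-labelled fluoxetine mice and 1615, 1984 and 2254 in HT-labelled vehicle mice. In WT-labelled mice it had 1442, 1718 and 1972 under fluoxetine and 2033, 2222 and 2556 under vehicle, without overlap. The effect was -0.12 ± 0.06 in HT-labelled mice, and Idi1 fell by 0.40 ± 0.06 in WT-labelled mice (limma adjusted p = 1.19e-05; interaction 0.29 ± 0.08, adjusted p = 0.792).

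Msmo1 and Sqle, which act on sterol intermediates and on squalene, also fell in WT-labelled mice. Msmo1 had an effect of 0.02 ± 0.07 in HT-labelled mice and fell by 0.27 ± 0.07 in WT-labelled mice (interaction 0.29 ± 0.10). Sqle had an effect of -0.06 ± 0.06 in HT-labelled mice and fell by 0.30 ± 0.06 in WT-labelled mice (interaction 0.24 ± 0.08). The HT minus WT difference under fluoxetine was 0.10 for Idi1, 0.12 for Msmo1 and 0.03 for Sqle, and under vehicle it was -0.19, -0.18 and -0.21. The arm that stood out was thus WT-labelled vehicle, which was high. Markers of myelinating oligodendrocytes, cells rich in cholesterol, had a median interaction of 0.25, from 0.49 in females and -0.025 in males. Of these 22 markers 0 had an unadjusted p under 0.05. Their summed level ran from 79045 to 250385 normalized reads in HT-labelled fluoxetine mice, 87804 to 171494 in HT-labelled vehicle mice, 92994 to 231045 in WT-labelled fluoxetine mice and 110765 to 207874 in WT-labelled vehicle mice. The part of these cells in the sterol values was not tested. In bulk tissue, fewer cells of a type and less RNA per cell cannot be told apart.

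Among 30 genes of the unfolded protein response, which senses misfolded protein in the endoplasmic reticulum, 11 rose and 1 fell in HT-labelled mice, and 2 (Dnajb11 and Creld2) rose and 0 fell in WT-labelled mice. The median effect was 0.13 in HT-labelled and 0.05 in WT-labelled mice. The interaction was above 0 for 24 genes with a median of 0.08, and 4 genes with a positive (13.3%) and 1 with a negative interaction (3.33%) had an unadjusted p under 0.05, beside 2.71% and 3.59% of all genes. Over all genes 1.46% rose and 2.09% fell in HT-labelled mice, and 0.469% rose and 0.915% fell in WT-labelled mice. Hspa5, or BiP, the HSP70 chaperone of the endoplasmic reticulum, had 7373, 8745 and 10730 normalized reads in HT-labelled fluoxetine mice and 5969, 7069 and 8342 in HT-labelled vehicle mice. WT-labelled mice had 5780, 7891 and 10720 under fluoxetine and 6117, 6830 and 8488 under vehicle. Treated mice lay above the vehicle mean of their sex in 10 of 10 HT-labelled and 9 of 10 WT-labelled mice. Hspa5 rose by 0.35 ± 0.06 in HT-labelled mice, and its value in WT-labelled mice was 0.19 ± 0.06 (adjusted p = 0.138), with an interaction of 0.165 and a 95% interval of -0.008 to 0.338. Manf, a secreted factor induced by this stress, rose by 0.28 ± 0.04 in HT-labelled mice, with 0.11 ± 0.04 in WT-labelled mice (interaction 0.17 ± 0.05, adjusted p = 0.792). Pdia3, which helps form disulfide bonds in glycoproteins, rose by 0.20 ± 0.03, with 0.08 ± 0.03 in WT-labelled mice (interaction 0.12 ± 0.05). Ern1, the sensor kinase IRE1, was the gene that fell in HT-labelled mice (-0.22 ± 0.06), with -0.03 ± 0.06 in WT-labelled mice.

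The promoters of many chaperone genes hold the endoplasmic reticulum stress element, a site bound by ATF6 together with NF-Y. It was searched as CCAAT, 9 bases of any kind and CCACG, on both strands, in the 250 bases before and 50 after the start of each gene (RefSeq, GRCm38.p6). Of 27 listed genes with a promoter entry, 8 held it (29.6%), against 39 of all 32851 promoters (0.119%), a known property of this gene class rather than a result of these data. Of the 11 genes that rose in HT-labelled mice 10 had a promoter there, and 5 held the motif. Calr, Canx and Syvn1 also held it and did not pass in HT-labelled mice. The 250 bases before the start are shown for 3 of these 5 genes that rose, chosen after their values were seen, with the motif in capitals. Promoters of genes that did not pass are not shown, so spacing and response are not compared. Hspa5 is at chr2:34771840-34772089, Dnajc3 at chr14:118937682-118937931 and Pdia6 at chr12:17266339-17266588, all on the plus strand.
Hspa5: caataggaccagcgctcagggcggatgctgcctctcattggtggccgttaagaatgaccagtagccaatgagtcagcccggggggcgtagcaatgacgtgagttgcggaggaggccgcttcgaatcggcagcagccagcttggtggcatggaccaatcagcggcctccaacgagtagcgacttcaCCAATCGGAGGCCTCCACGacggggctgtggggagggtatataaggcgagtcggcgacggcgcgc
Dnajc3: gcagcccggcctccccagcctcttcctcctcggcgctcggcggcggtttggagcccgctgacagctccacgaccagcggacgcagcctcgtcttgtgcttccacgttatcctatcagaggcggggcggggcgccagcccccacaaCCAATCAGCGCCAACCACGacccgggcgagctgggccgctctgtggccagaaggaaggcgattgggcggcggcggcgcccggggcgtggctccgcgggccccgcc
Pdia6: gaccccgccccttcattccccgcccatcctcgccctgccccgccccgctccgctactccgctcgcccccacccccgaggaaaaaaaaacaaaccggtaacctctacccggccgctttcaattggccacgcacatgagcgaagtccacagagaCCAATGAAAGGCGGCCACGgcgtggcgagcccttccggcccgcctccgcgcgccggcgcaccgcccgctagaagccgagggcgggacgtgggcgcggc
The motif spans bases 186 to 204 of the window in Hspa5, 146 to 164 in Dnajc3 and 153 to 171 in Pdia6. Dnajc3, a cochaperone that restrains the kinase PERK, rose by 0.20 in HT-labelled mice, with 0.11 in WT-labelled mice (interaction 0.09 ± 0.05). Pdia6, a disulfide isomerase, rose by 0.25 in HT-labelled mice, with 0.13 in WT-labelled mice (interaction 0.12 ± 0.08). A match is a description of the letters and not a measure of binding.

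Nuclear genes of oxidative phosphorylation had interactions mostly above 0, each of small size. Of 76 genes tested 9 rose and 0 fell in HT-labelled mice, and 0 passed in WT-labelled mice. The interaction was above 0 for 68 with a median of 0.07, from a median effect of 0.06 in HT-labelled and 0.00 in WT-labelled mice, and 7 positive (9.21%) and 0 negative interactions had an unadjusted p under 0.05, beside 2.71% and 3.59% of all genes. Over all genes 1.46% rose and 2.09% fell in HT-labelled mice, and 1.38% passed in WT-labelled mice. Beside so low a share, 0 of 76 in WT-labelled mice does not set this list apart. Besides Cox5a, Uqcrfs1, the iron-sulfur subunit of complex III, rose by 0.15 ± 0.04 in HT-labelled mice, with 0.00 ± 0.04 in WT-labelled mice (interaction 0.145 ± 0.052). Atp5e, a small subunit of ATP synthase, passed in neither genotype (interaction 0.31 ± 0.11). Of 19 genes for mitochondrial pyruvate entry and lactate, the interaction was above 0 for 17 with a median of 0.08, and 4 (21.1%), all positive, had an unadjusted p under 0.05. They include Slc16a1, a monocarboxylate transporter, at 0.35 ± 0.13 and Pdp1, the phosphatase that activates pyruvate dehydrogenase, at 0.24 ± 0.10. Mpc2 and Dlat, a pyruvate dehydrogenase subunit, rose in HT-labelled mice, beside 1.46% of all genes. No member passed in WT-labelled mice, beside 1.38% of all genes. With a term for the presence of Gm10221 reads the medians were 0.09 for the nuclear list and 0.10 for the pyruvate list. With that term the interaction was 0.215 for Cox5a, 0.155 for Uqcrfs1, 0.37 for Atp5e, 0.24 for Mpc2, 0.43 for Slc16a1 and 0.30 for Pdp1. Only WT-labelled fluoxetine females, 3 of 5 with those reads, inform the term, so these values are no check on HT-labelled females.

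Glucocorticoid-responsive genes, which glucocorticoid receptor activates after stress hormone release, had interactions mostly below 0. Of 24 genes 2 rose and 5 fell in HT-labelled mice, beside 1.46% and 2.09% of all genes. In WT-labelled mice 4 rose and 3 fell, beside 0.469% and 0.915% of all genes. The interaction was above 0 for 5 of the 24 (median -0.10). The median effect was 0.055 in HT-labelled and 0.04 in WT-labelled mice. An unadjusted p under 0.05 was reached by 4 genes with a negative (16.7%) and 1 with a positive interaction (4.17%), beside 3.59% and 2.71% of all genes. Hif3a, a hypoxia-inducible factor subunit, had 198.4, 366 and 435 normalized reads in HT-labelled fluoxetine mice and 227.7, 281 and 413.4 in HT-labelled vehicle mice. The WT-labelled arms had 286, 451.2 and 834.2 under fluoxetine and 209.7, 250.5 and 435.1 under vehicle, and the WT-labelled fluoxetine arm was high and widely spread. The effect was 0.17 ± 0.14 in HT-labelled mice, and Hif3a rose by 0.78 ± 0.15 in WT-labelled mice (interaction -0.60 ± 0.21, limma adjusted p = 0.792). The highest values were 834.2 in WT-labelled fluoxetine male 5 and 754.2 in WT-labelled fluoxetine female 3. Next by interaction p in this list were Ddit4 and Per1, which fell in both genotypes and by more in HT-labelled mice. Their interactions were -0.31 ± 0.12 and -0.20 ± 0.09, and Per1 is also counted among the immediate early genes. Fkbp5, a feedback inhibitor of the receptor, had an effect of 0.26 in HT-labelled mice and rose by 0.57 in WT-labelled mice (interaction -0.31 ± 0.18). Sult1a1, a sulfotransferase, had an effect of 0.37 ± 0.13 in HT-labelled mice and rose by 0.70 ± 0.13 in WT-labelled mice (interaction -0.33 ± 0.18). Nr3c1, the glucocorticoid receptor gene, had a positive interaction of 0.20 ± 0.09 and passed in neither genotype.

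**Figure D4:**
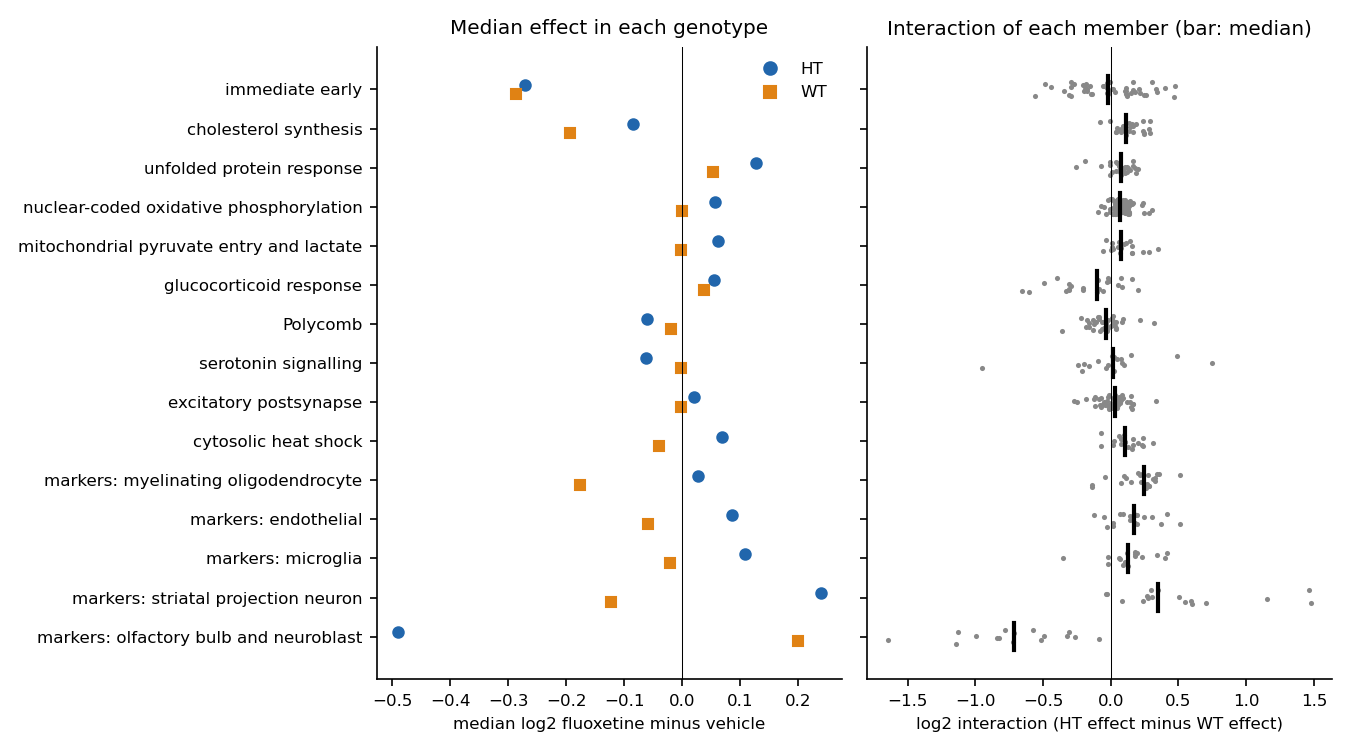
Medians of the log2 fluoxetine effect over the members of each gene list (left, circles for HT-labelled and squares for WT-labelled mice) and the log2 interaction of each member (right, points, with the median as a bar). Cholesterol synthesis lies at medians of -0.08 in HT-labelled and -0.19 in WT-labelled mice, immediate early genes at -0.27 and -0.29, and olfactory bulb markers at an interaction median of -0.72.

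Over 37 Polycomb genes 4 fell and 0 rose in HT-labelled mice, beside 2.09% and 1.46% of all genes. In WT-labelled mice 0 of them passed, beside 1.38% of all genes. The interaction was above 0 for 14 and below 0 for 23 with a median of -0.04. An unadjusted p under 0.05 was reached by 4 with a negative interaction (10.8%, beside 3.59% of all genes) and 0 with a positive one. Phc1 and Phf1, further Polycomb proteins, had interactions of -0.13 ± 0.06 and -0.16 ± 0.07 without passing in either genotype. Of 18 genes of serotonin signalling, the interaction was above 0 for 10 with a median of 0.02, and 0 passed. Htr2a, Htr1a and Htr2c, receptors of cortical neurons, had interactions of -0.02 ± 0.09, 0.05 ± 0.11 and 0.09 ± 0.21. The member with the smallest p was Htr4, a Gs-coupled receptor at 27 ± 10.7 normalized reads in HT-labelled fluoxetine, 18.8 ± 6.00 in HT-labelled vehicle, 22.5 ± 10.1 in WT-labelled fluoxetine and 24.9 ± 7.15 in WT-labelled vehicle mice (SD, n = 10, 10, 10 and 9), with an interaction of 0.75 ± 0.36 (limma adjusted p = 0.792). Htr3a and Htr7 had -0.21 ± 0.11 and -0.20 ± 0.11. Maob, an enzyme that degrades amines, rose by 0.27 in HT-labelled mice, with 0.12 in WT-labelled mice. The transporter gene Slc6a4, the target of the drug, and Htr2b were not among the genes tested.

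Genes of the excitatory postsynapse, the compartment in which Tanc2 acts, gave 35 of 56 interactions above 0 with a median of 0.03. Besides Homer1, Grm2, a metabotropic glutamate receptor found mainly on axons, had an interaction of -0.25 ± 0.10. Cacng2, the AMPA receptor auxiliary subunit stargazin, rose by 0.21 ± 0.05 in HT-labelled mice, with 0.06 ± 0.05 in WT-labelled mice (interaction 0.15 ± 0.07). Of 20 cytosolic heat shock genes 18 had an interaction above 0 with a median of 0.10, and 5 (25%), all positive, had an unadjusted p under 0.05, beside 2.71% of all genes. Hsph1 and Hspa8, both cytosolic chaperones, had interactions of 0.31 ± 0.12 and 0.16 ± 0.07. Hsp90aa1, the inducible HSP90, rose by 0.15 ± 0.04 in HT-labelled mice, with 0.02 ± 0.04 in WT-labelled mice. Under vehicle the HT minus WT difference of these 3 genes was -0.22, -0.13 and -0.11.

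Of 19 endothelial markers 16 had an interaction above 0 with a median of 0.17, and 5 (26.3%), all positive, had an unadjusted p under 0.05, beside 2.71% of all genes. Of 12 mural cell markers 7 had an interaction above 0 with a median of 0.07, which was -0.02 in females and 0.16 in males. The summed level of the endothelial markers ran from 14191 to 21244 normalized reads in HT-labelled fluoxetine mice and 13106 to 17049 in HT-labelled vehicle mice. It ran from 13741 to 17042 in WT-labelled fluoxetine mice and 13469 to 17582 in WT-labelled vehicle mice. Foxq1, a forkhead factor of brain endothelium, had 94.52, 122.9 and 147.9 normalized reads in HT-labelled fluoxetine mice and 52.42, 72.76 and 97.21 in HT-labelled vehicle mice. Values in WT-labelled mice were 74.89, 97.38 and 129.4 under fluoxetine and 66.72, 84.27 and 97.56 under vehicle. It rose by 0.74 ± 0.11 in HT-labelled mice (limma adjusted p = 4.35e-06), with 0.23 ± 0.11 in WT-labelled mice (interaction 0.51 ± 0.15, adjusted p = 0.792). Sox18, an endothelial transcription factor, rose by 0.66 ± 0.10 in HT-labelled mice, with 0.24 ± 0.11 in WT-labelled mice (interaction 0.42 ± 0.15). Kdr, the main VEGF receptor, rose by 0.34 ± 0.09 in HT-labelled mice, with -0.03 ± 0.09 in WT-labelled mice (interaction 0.37 ± 0.13). Microglial markers had 14 of 17 interactions above 0 (median 0.13), 4 of them (23.5%) at an unadjusted p under 0.05, and their summed level ran from 14758 to 19543, 13828 to 15994, 10947 to 16772 and 13421 to 17178 normalized reads in HT-labelled fluoxetine, HT-labelled vehicle, WT-labelled fluoxetine and WT-labelled vehicle mice. The highest library of the HT-labelled fluoxetine arm in both sums was female 4, without which the endothelial median was 0.12. WT-labelled fluoxetine male 2 had the lowest microglial sum (10947), and without it the microglial median was 0.09. The part of these cells in the other results was not tested.

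Markers of tissue next to the prefrontal cortex had the interaction medians farthest from 0, and these varied with single libraries. Olfactory bulb and neuroblast markers had 0 of 16 interactions above 0 and a median of -0.72, with no member at an unadjusted p under 0.05. Their median ran from -0.96 without HT-labelled fluoxetine male 3 to -0.45 without WT-labelled fluoxetine male 5. Cpne6, Meis2 and Sp9, genes of olfactory bulb neurons or their precursors, had interactions of -0.31 ± 0.18, -0.32 ± 0.22 and -0.72 ± 0.55. Striatal projection neuron markers had 15 of 17 interactions above 0 and a median of 0.35. Their summed level was 18747 normalized reads in HT-labelled fluoxetine male 3 and 15659 in male 4 of that arm. The highest values of the other arms were 10298 in HT-labelled vehicle, 11092 in WT-labelled fluoxetine and 12258 in WT-labelled vehicle mice. Without male 3, and with male 4 still in the fit, the striatal median was 0.26. With the olfactory bulb markers as a covariate, 0 genes passed the interaction, and the list medians were 0.09 for cholesterol synthesis, 0.06 for the unfolded protein response, 0.04 for oxidative phosphorylation and 0.15 for endothelial markers. Under that covariate the median was 0.03 for immediate early genes, -0.025 for the excitatory postsynapse, -0.005 for serotonin signalling, 0.03 for interneuron markers and 0.08 for the olfactory bulb markers themselves, each of opposite sign to its median without it, and -0.006 for Polycomb genes.

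The interaction was next tested within each sex and between the sexes. In females 0 genes passed by limma (0%, smallest adjusted p 0.47), with 1520 genes (8.48%) at an unadjusted p under 0.05. This count was 778 without WT-labelled fluoxetine female 3 and 2678 without WT-labelled fluoxetine female 5. In males 0 genes passed (0%, smallest adjusted p 1), with 295 genes (1.65%) at an unadjusted p under 0.05. The female minus male difference of the interaction passed for 0 genes (0%), with 384 genes (2.14%) at an unadjusted p under 0.05 and a median 95% half-width of 0.395. edgeR called 0 genes in each of these, and DESeq2 called 4 in females (0.0223%), 0 in males and 2 between the sexes (0.0112%). Among these 39 libraries Gm10221 reads occurred in females alone. With a term for them, estimated from WT-labelled fluoxetine females alone, the female count at an unadjusted p under 0.05 was 3470, and 5 genes passed. The 23 genes with the smallest interaction p had the same sign in both sexes, which the equal weighing of the sexes in their choice favours. Mpc2 had an interaction of 0.38 in females and 0.18 in males, Cox5a 0.33 and 0.14, Cbx7 -0.30 and -0.15, and Idi1 0.35 and 0.22. For Chmp5 the male value was the larger (0.16 in females and 0.18 in males).

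The genes with the smallest p for a sex difference had interactions of opposite sign in females and males. Tent4a, a poly(A) polymerase that adds mixed tails, had 1276, 1242, 1150, 1152 and 1182 normalized reads in HT-labelled fluoxetine females and 1250, 1379, 1277, 1213 and 1238 in HT-labelled vehicle females. In WT-labelled females it had 1090, 1167, 1042, 1065 and 1073 under fluoxetine and 1323, 1260, 1268, 1377 and 1438 under vehicle, where the groups did not overlap. Its interaction was 0.21 in females and -0.08 in males. Tmem258, a subunit of the oligosaccharyltransferase of the endoplasmic reticulum, had 396.2, 496.4, 508.2, 410.6 and 380.3 normalized reads in HT-labelled fluoxetine males and 353.6, 338.7, 346.8, 397 and 322.8 in HT-labelled vehicle males. In WT-labelled males it had 388.3, 411.7, 348, 345.2 and 359.4 under fluoxetine and 390.5, 422.3, 372.3 and 400.3 under vehicle. Its interaction was -0.26 in females and 0.41 in males. Foxred2 (0.14 and -0.23) and Astn1 (0.12 and -0.12) had a higher interaction in females, and Rps23 (-0.25 and 0.14) and Cdk20 (-0.29 and 0.18) a higher one in males. The limma adjusted p of these differences was 0.998 at the lowest.

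**Figure D5:**
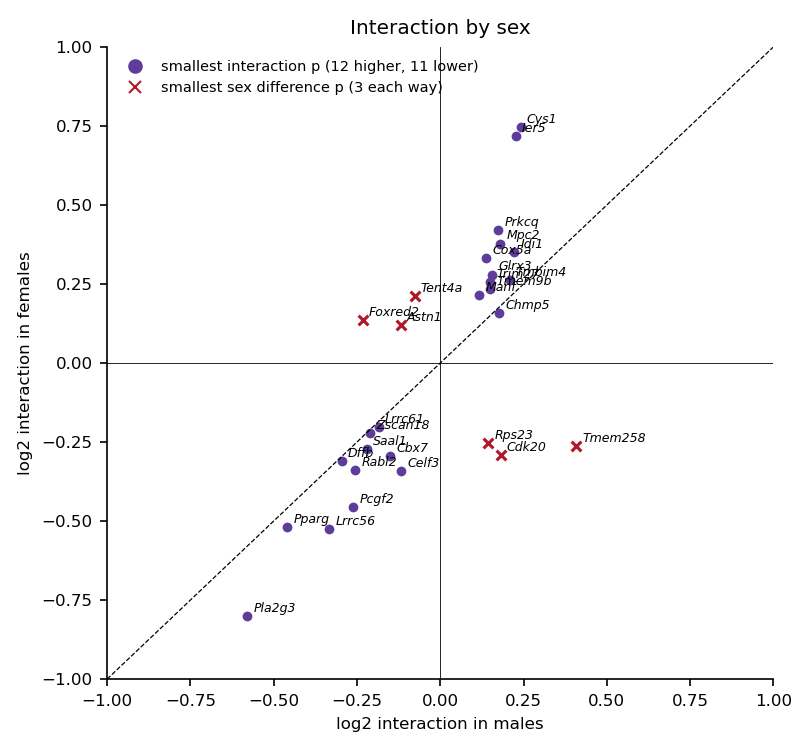
Log2 interaction in females (vertical axis) against that in males (horizontal axis) for 23 genes with the smallest interaction p (circles, 12 higher and 11 lower) and the 6 genes with the smallest p of the sex difference (crosses). The dashed line marks equal values. Circles lie in the quadrants of equal sign, most of them farther from 0 in females (Ier5 at 0.72 in females and 0.23 in males), and crosses lie in the quadrants of opposite sign.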

How the data were processed

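RNA from the prefrontal cortex of 58 mice was sequenced from stranded libraries of polyadenylated RNA, per the labels' protocols. The authors deposited a signal for 18088 genes, gene-level reads after division by the size factor of that library. The submitters' processing notes name Salmon 0.11.2, DESeq2 1.19.11, R 3.6.0 and GRCm38, with options not given in the sources used here. Division by size factors hides a general shift in RNA per cell. Gene names and positions came from GENCODE (18077 genes matched).

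Deposited values divided by a step per library (0.788 to 1.30 in the 39 libraries) came out whole within 0.01 for 100% of values, so reads were recovered. In 11 of the 58 columns the step lies too near 1 to tell reads from rounded values. The test was limma 3.58.1 with trend on log2(deposited value + 1), with genes at 10 or more in at least 4 libraries. It was fitted on all 58 libraries in 12 groups (genotype, drug and sex) with a common estimate of the spread, two-sided, with Benjamini-Hochberg adjusted p under 0.05. On this scale the fold change of a gene with low values comes out too small. The recovered reads went to the quasi-likelihood test of edgeR 4.0.16 and the Wald test of DESeq2 1.42.0 as alternatives. The fit was tested on simulated data.

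Other alternatives were filters, pseudocounts of 0.1 and 5, quantile normalization, only the 39 libraries, 2 surrogate variables (sva 3.50.0), additive sex, a replicate block, a term for Gm10221 reads, library weights and each library left out. A Gm10221 term with additive sex, the 31 libraries without those reads and an olfactory bulb covariate were chosen after seeing the data.

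Named were Tanc2, Arc, Hspa5, Idi1, every gene called in the interaction, the 12 genes each way with the smallest interaction p, 5 each way for each fluoxetine effect and 3 each way for the sex difference. These genes needed a mean of at least 100 normalized reads and a symbol of their own. Up to 3 members of each list with the smallest interaction p were added, and further members of a list are named where they passed or bear on a count. The comparison and its 33 gene lists were chosen with earlier results of these data known. Replicate numbers were not taken to pair mice, since deviations of same-numbered mice correlated at a median r of 0.008. Among the genes the naming rule and the sterol list selected, 2 are not reported here and were left out of the lists and counts of named genes.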

Additional observations from a re-analysis of the deposited data

Results flagged for a closer look

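Of 592 groups of 4 or 5 mice of the same genotype, drug and sex, over the 74 named genes, 40 held a mouse farther from the rest than Dixon's critical value at 95%. Chance alone gives about 1 such group in 20. Each value below is in normalized reads, with the lowest and highest of the other mice of its group in brackets.

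Tanc2 had 7424 in HT-labelled fluoxetine female 4 (8150 to 8424) and 6961 in WT-labelled vehicle male 3 (7782 to 7828). HT-labelled fluoxetine male 3, the library with the highest striatal marker sum, had 2772 for Arc (635.9 to 1124), 199.5 for Zfp189 (156.4 to 166.4) and 54.13 for Htr4 (20.2 to 26.94). Other HT-labelled fluoxetine mice set apart were male 5 for Idi1 with 1776 (1883 to 1915) and male 1 for Pparg with 122.5 (92.69 to 99.83). Female 3 of that arm had 324.8 for Saal1 (284.5 to 290.7), and female 4 had 133.3 for Htr7 (179.9 to 196.1). HT-labelled vehicle male 1 had 620.4 for Flrt3 (664.3 to 673.7) and 55.06 for Gm9794, with the other males at 0.

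WT-labelled fluoxetine male 5 had 7657 for Cpne6 (4346 to 5073), 8417 for Meis2 (4304 to 5017) and 412.3 for Sp9 (101.5 to 141.7), all olfactory bulb markers. The same mouse had 1728 for Klf6 (2075 to 2189), 487.8 for Klf10 (588.4 to 622.6), 275.2 for Zfp366 (207.4 to 221.9) and 2195 for Cacng2 (2665 to 2847). WT-labelled fluoxetine female 5 had 321.7 for Gm9794 (0 to 53.97), 2494 for Per1 (2005 to 2038) and 300.4 for Zfp366 (200.3 to 226.1). Female 3 of that arm had 626 for Lrrc61 (509.7 to 534.4), and female 2 had 310.6 for Dyrk3 (224.4 to 249.3). Male 4 had 1153 for Tent4a (1188 to 1199) and 173.2 for Htr3a (207.1 to 219.4).

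WT-labelled vehicle male 3 had 1323 for Ier5 (1581 to 1629), 2392 for Grm2 (1630 to 1744) and 7508 for Hsph1 (8787 to 9016). Male 1 had 222 for Dffb (192.1 to 195.7) and 51.4 for Gm9794, with the other males at 0. Male 4 had 557.2 for Pcgf2 (704.4 to 726.6) and 214.2 for Cdk20 (242.9 to 245.7), and male 2 had 354.3 for Ern1 (373 to 376.2). WT-labelled vehicle female 3 had 2181 for Tmem9b (2376 to 2402), 1576 for Chmp5 (1704 to 1740) and 129.3 for Lrrc56 (90.16 to 98.62). Female 2 had 10690 for Astn1 (8466 to 9019) and 238.8 for Tmem258 (379.3 to 431.9). Female 4 had 1862 for Klf6 (1601 to 1663), and female 1 had 498.4 for Zfp366 (357.1 to 397).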

How the results depend on the processing

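No alternative called more than 2 genes in the interaction over both sexes, and the cause of the differences below was not tested. By limma with library weights 2 genes passed (Ier5 and Gm42890), and by DESeq2 2 passed (Gm42890 and Gm9794). In females DESeq2 passed 4 genes, the Gm10221 term 5 and library weights 2, and leaving out 1 library gave 0 to 1 (Gm13848, without WT-labelled fluoxetine female 1). DESeq2 passed 2 genes for the sex difference. At an unadjusted p under 0.05 the interaction counted 2214 genes with the Gm10221 term, 1917 with weights, and 766 (without WT-labelled fluoxetine male 5) to 1768 (without WT-labelled fluoxetine female 5) with a library left out. In females the counts were 3470, 2463 and 778 (without WT-labelled fluoxetine female 3) to 2678 (without WT-labelled fluoxetine female 5, and 2372 without female 2). In males a filter of 50 in at least 10 libraries gave 157, 2 surrogate variables 465, weights 549 and a library left out 267 to 368. With a mean for each group, the Gm10221 term is estimated only from WT-labelled fluoxetine females, 3 with and 2 without those reads. Every lithium library had such reads, so the lithium libraries add nothing to that term. With additive sex the term also draws on HT-labelled and WT-labelled fluoxetine females against males of the same arm.

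The effect in HT-labelled mice counted 975 genes with 2 surrogate variables, 1947 with weights, 184 with the Gm10221 term and additive sex, and 377 (without HT-labelled vehicle male 5) to 723 with a library left out. It was 401 without HT-labelled vehicle female 5 and 406 without HT-labelled fluoxetine male 2. The effect in WT-labelled mice counted 91 with the Gm10221 term, 498 with weights, 129 with that term and additive sex, and 159 (without WT-labelled vehicle male 1) to 373 (without WT-labelled fluoxetine female 5). Mice of the same replicate number did not deviate together (median r 0.008 over 57 pairs, 0.011 over 228 pairs of different number, and 9 of 39 mice closest to their own number). The replicate block gave 0 genes for the interaction (1091 unadjusted), 706 in HT-labelled and 251 in WT-labelled mice.

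Interactions near 0 changed sign. Astn1 was 0 by edgeR, 0.001 by DESeq2, 0.002 with additive sex and with the replicate block, 0.009 with the Gm10221 term, 0.024 with weights and -0.029 to 0.016 with a library left out. Flrt3 was -0.038 with weights and -0.001 to 0.072 with a library left out. Stk40 was 0.015 with the Gm10221 term, 0.021 with weights and also with that term and additive sex, and -0.024 to 0.019 with a library left out. Tanc2 was 0.007 with weights and -0.022 to 0.018 with a library left out, and Nab2 was 0.055 with weights. With the Gm10221 term Foxred2 was 0 and Rps23 was 0.006. Depth was 23270000 reads or more, and intervals were wider for all genes (median SE 0.098) than for genes with a mean of at least 100 normalized reads (0.076).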

Other observations

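The 18 other gene lists, with 395 members tested (a gene in more than 1 list counted in each), held 7 members with a positive and 7 with a negative interaction at an unadjusted limma p under 0.05, and 0 that passed. Over all genes the shares at that p were 2.71% with a positive and 3.59% with a negative interaction. Deep layer neuron markers had the highest median interaction (0.135) and interferon response genes the lowest (-0.16), which was -0.045 without HT-labelled vehicle male 1. The median was -0.10 for interneuron markers, 0.10 for oligodendrocyte precursor markers, 0.07 for mural cell markers, 0.05 for upper layer neuron markers and -0.02 for astrocyte markers. Red blood cell markers had a median effect of -0.35 in HT-labelled and -0.36 in WT-labelled mice and an interaction median of 0.04. Choroid plexus markers had a median interaction of 0.03, from -0.31 in females and 0.48 in males, and meningeal and fibroblast markers 0.07, from -0.17 in females and 0.24 in males. Transcripts of the mitochondrial genome had 0.04, cytosolic ribosome genes 0.03, presynaptic release genes 0.04 and clock genes 0.02. Genes of neurotrophin signalling had -0.02, those of mTOR and TSC -0.025, those of inhibitory synapses -0.005 and those of BMP feedback 0.006.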
